A study of Mus musculus with 6 samples.

Results

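The genes described here code for the machinery that takes the poly(A) tail and the cap off messenger RNA and degrades what is left. They were chosen by name from a table of 54532 genes, 22046 of them protein coding, and there are 65 of them. The choice by name also takes in Lsm10 and Lsm11, which belong to a particle outside mRNA turnover. They are the subunits of CCR4-NOT (Cnot genes), the other deadenylases Pan2, Pan3 and Parn, the cytoplasmic poly(A)-binding proteins (Pabpc), the decapping factors and exonucleases (Dcp, Edc, Xrn), the Lsm proteins, the RNA exosome (Exosc), the nonsense-mediated decay factors (Upf, Smg) and the Zfp36 family. In 59 of the 65 the mean level over all libraries reached 1 FPKM, the unit the authors deposited (fragments corrected for the length of the gene and the depth of the library), and those 59 were tested.

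The samples were whole hearts of mice aged 4 days: 3 labelled Wtap-CKO, a conditional knockout of Wtap, and 3 of genotype Wtapflox/flox, called Wtap-flox here. All 6 libraries were made from poly(A)-selected RNA, and the submitters describe the hearts of each group as biologically independent. The sources used here do not give the Cre driver, the exons deleted, whether the Wtap-flox mice carried Cre, or the strain. WTAP belongs to the complex that places N6-methyladenosine (m6A) on mRNA, and the series asks what its loss does to the developing heart.

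In most animal mRNAs decay starts with the tail. PAN2-PAN3 and then CCR4-NOT shorten it, after which either DCP2 removes the cap and XRN1 degrades the body from the 5′ end, or the exosome degrades it from the 3′ end. Specific mRNAs are brought to this machinery by adaptors: ZFP36 proteins bind AU-rich elements, UPF1 acts at premature stop codons, and the m6A reader YTHDF2 recruits CCR4-NOT to methylated transcripts.

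Facts of the whole data set bear on these values. The FPKM values step in whole reads, and 15649028 to 18045599 reads per library were recovered from them, so that 1 read in a gene of 1 kb was worth 0.0564 to 0.0647 FPKM. Wtap itself had 9.32, 7.75 and 9.46 FPKM in Wtap-CKO hearts, against 7.77, 8.74 and 10.9 FPKM in Wtap-flox hearts (log2 fold change -0.04, adjusted p = 0.893). The targeted gene therefore did not check the labels. The deleted exons are not known here, the hearts were whole, and the cause of the unchanged level was not tested. Wtap-CKO is used throughout as the name on the label. The first principal component separated the groups (52.6% of the variance), and the second (20.4%) set Wtap-CKO 3 apart. Of the 59 members 15 had their highest level in Wtap-CKO 3 and 3 each in Wtap-CKO 1 and Wtap-CKO 2, beside 17, 9 and 12 in Wtap-flox 1 to 3. Wtap-CKO 3 also had 25.9 FPKM of the neutrophil gene S100a8, beside 5.26 and 2.80 FPKM in the other Wtap-CKO hearts and at most 1.90 FPKM in Wtap-flox hearts.

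Cardiomyocyte genes such as Myh6 and Tnnt2 were abundant in every library, as the label of heart implies, with summed levels of 6590 to 8160 FPKM in Wtap-CKO and 6740 to 8330 FPKM in Wtap-flox hearts. Myh6 (mean 3240 FPKM) and Myl2 (2350 FPKM) led these sums. Of the 8 genes 6 had a negative log2 fold change, and 1 was lower (Ryr2) and 0 higher by limma. Limma-voom called 2 lower, and 3 were lower at an unadjusted p below 0.05 (Ryr2, Pln and Myl7). Myl7 averaged 28.2 FPKM in Wtap-CKO and 101 FPKM in Wtap-flox hearts (limma adjusted p = 0.072). Of 7 tested macrophage markers 3 were higher (C1qa, C1qb and Mrc1) and 0 lower (limma-voom 0 lower, unadjusted p below 0.05 0 lower). Those 3 are 42.9% of the 7, beside 9.91% of all tested genes called higher. Of the 8 macrophage markers listed 0 were at 0 in all libraries, and their summed level was 68.2 to 130 FPKM in Wtap-CKO and 45.4 to 52.5 FPKM in Wtap-flox hearts. Monocyte and neutrophil markers summed to 10.6 to 81.1 FPKM in Wtap-CKO and 5.99 to 10.3 FPKM in Wtap-flox hearts, with 0 of 3 called (limma-voom 0, unadjusted p below 0.05 0), and the highest sum was in Wtap-CKO 3. Single markers of other types passed as well: Kdr and Dcn were lower, and Emcn and Cspg4 higher. In whole hearts, fewer cells of a type and less RNA per cell cannot be told apart, and the part of cell composition in the changes of Zfp36 and its targets was not tested.

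Most of the members did not pass the test. The few that did were in CCR4-NOT, the Lsm proteins, the exosome and the Zfp36 family. At a limma adjusted p below 0.05, 5 of the 59 tested members (8.47%) were higher in Wtap-CKO hearts: Zfp36, Lsm10, Lsm11, Exosc4 and Exosc1. Over all 12568 tested genes the share called higher was 9.91%. In the other direction 2 members (3.39%), the CCR4-NOT subunits Cnot10 and Cnot3, were lower in Wtap-CKO hearts, against 6.69% of all tested genes. In this fit neither share of the members exceeded that of all tested genes. That did not hold in most other fits with the deposited scaling. With any single library left out, either the share higher or the share lower was above that of all tested genes. With array weights 22% of the members were lower and 11.9% higher, beside 13.3% and 16.4% of all genes. With a filter at 5 FPKM 7.14% were lower and 11.9% higher, beside 6.37% and 13.4%. With no filter on low genes 6.45% of the members were higher and 0% lower, beside 2.66% and 1.78% of all 27201 genes. Those 27201 include genes under 1 FPKM. With TPM scaling, which sets the same total in every library, the median log2 fold change of all tested genes moved to -0.14, and the members split into 4 higher (6.78%) and 10 lower (16.9%), beside 6.3% higher and 12.7% lower of all 12578 genes tested with that scaling.

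Of the 59 members, 39 had a negative log2 fold change and 20 a positive one. The median was -0.14 on the scale of log2(FPKM + 1), beside 0.00 for all tested genes. The 3 libraries of each group did not overlap for 24 members (40.7%), beside 37.1% of all tested genes. At an unadjusted p below 0.05, 12 of the 59 members were lower and 7 higher, beside 14.2% lower and 17.5% higher of all tested genes. Limma-voom on reads recovered from the FPKM values also called Zfp36, Lsm10, Lsm11, Exosc4 and Exosc1 higher, and it called 4 lower: Cnot10, Cnot3, Zfp36l1 and Lsm14b. These were 8.20% and 6.56% of the 61 members it tested, beside 11.2% higher and 8.85% lower of the 15167 genes it tested. Without Wtap-CKO 3, 5 members were higher (Zfp36, Lsm10, Lsm11, Exosc4 and Smg8) and 4 lower (Cnot10, Cnot3, Lsm5 and Smg9), or 8.47% and 6.78%, beside 9.46% and 6.6% of all genes tested without it.

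**Figure D1:**
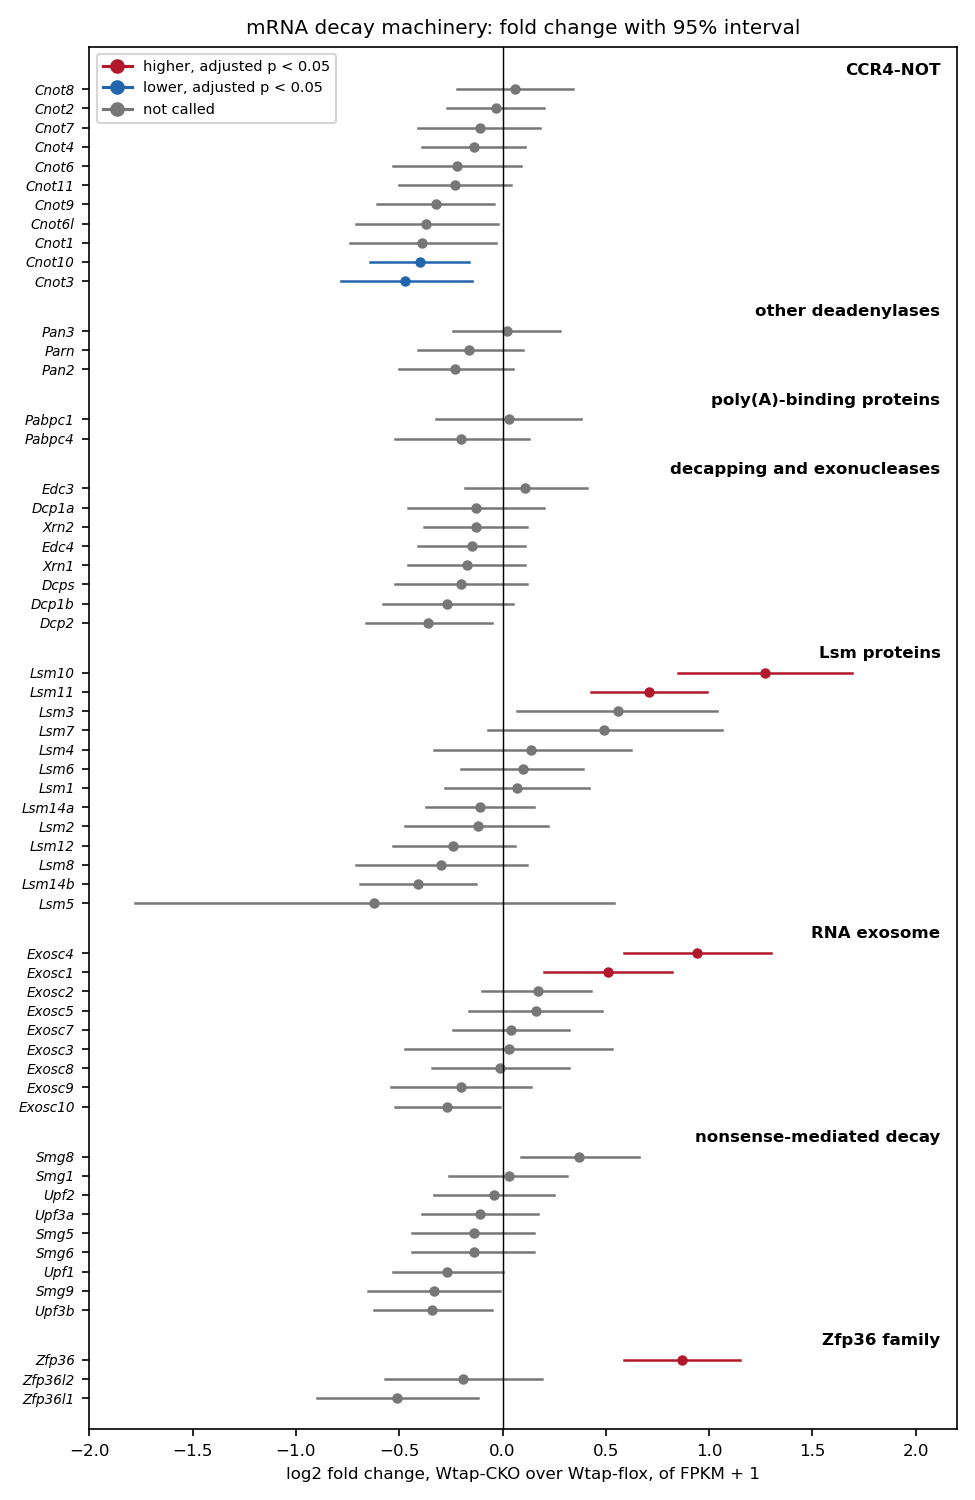
Log2 fold change of FPKM + 1, Wtap-CKO over Wtap-flox, for the tested members by sub-group, with 95% intervals and 1 uncalled member left out. Red marks the 5 members called higher and blue the 2 called lower at an adjusted p below 0.05, and grey marks members not called. Most grey points lie between -0.5 and 0.5, and Lsm5 has the widest interval.

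The promoters of 4 members are printed because the results turn on their genes: Zfp36 and Zfp36l1 had fold changes of opposite sign within a family, and Lsm10 and Lsm11, partners in a single particle, were both higher. Each window runs from 250 bases before to 50 bases after the start that RefSeq gives in GRCm38.p6, 5′ to 3′ on the gene's own strand. That start need not be the edge of the gene in the authors' table. Zfp36 is at chr7:28379179-28379478 (minus strand), Zfp36l1 at chr12:80112964-80113263 (minus), Lsm10 at chr4:126096403-126096702 (plus) and Lsm11 at chr11:45944886-45945185 (minus). Capitals mark matches to any of 8 motifs, searched on both strands: Sp1 (GGGCGG), CRE (TGACGTCA), AP-1 (TGANTCA), E-box (CACGTG), Ets (CCGGAA), the CCAAT box (CCAAT), the TATA box (TATAAA) and the CArG box, by which serum response factor binds.
Zfp36: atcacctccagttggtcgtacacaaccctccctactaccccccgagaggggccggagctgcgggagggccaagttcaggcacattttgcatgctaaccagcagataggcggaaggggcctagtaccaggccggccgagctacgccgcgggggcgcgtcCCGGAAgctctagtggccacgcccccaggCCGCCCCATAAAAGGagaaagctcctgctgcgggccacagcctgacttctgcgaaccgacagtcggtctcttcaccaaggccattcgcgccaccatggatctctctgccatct
Zfp36l1: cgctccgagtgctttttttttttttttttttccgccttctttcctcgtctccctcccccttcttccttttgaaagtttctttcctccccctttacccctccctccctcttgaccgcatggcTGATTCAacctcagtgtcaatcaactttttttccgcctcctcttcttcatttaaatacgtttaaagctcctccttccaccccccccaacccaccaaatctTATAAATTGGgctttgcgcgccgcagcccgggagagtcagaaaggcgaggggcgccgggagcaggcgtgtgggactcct
Lsm10: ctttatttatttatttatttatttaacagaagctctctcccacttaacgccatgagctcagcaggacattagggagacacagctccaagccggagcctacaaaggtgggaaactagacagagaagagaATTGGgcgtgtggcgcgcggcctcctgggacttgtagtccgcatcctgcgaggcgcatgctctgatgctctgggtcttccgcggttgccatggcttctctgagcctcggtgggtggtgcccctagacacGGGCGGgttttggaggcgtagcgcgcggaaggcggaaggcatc
Lsm11: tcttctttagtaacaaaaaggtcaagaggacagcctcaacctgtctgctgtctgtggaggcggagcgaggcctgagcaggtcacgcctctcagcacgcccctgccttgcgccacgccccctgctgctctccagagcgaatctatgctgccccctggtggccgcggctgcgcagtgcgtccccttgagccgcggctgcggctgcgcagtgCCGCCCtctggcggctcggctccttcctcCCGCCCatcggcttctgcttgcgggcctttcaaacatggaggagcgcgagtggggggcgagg

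The Zfp36 window holds a CArG box that ends 48 bases before the start, with an Sp1 match that shares its first base and an Ets match farther upstream. A CArG box was found in 1.63% of 32851 mouse promoter windows of the same length, an Sp1 match in 35.7% and an Ets match in 14.9%. Zfp36 was the 1 member with a CArG box among the 51 of 65 members that have a window. Of 12 listed immediate early genes 9 have a window, and 1 of these, Egr2, holds a CArG box. The Zfp36l1 window holds no CArG box. It has an AP-1 match (found in 7.81% of all windows) and a TATA match (13.6%) that overlaps a CCAAT match (37.4%). Lsm10 has 1 Sp1 and 1 CCAAT match and Lsm11 has 2 Sp1 matches, both common motifs. CRE was found in 1.79% of windows and the E-box in 7.15%, and neither in these 4. These are matches of letters, and no binding was measured.

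Zfp36, which codes for tristetraprolin, binds AU-rich elements of cytokine and immediate early mRNAs and brings CCR4-NOT to them. It had 12.8, 10.7 and 11.8 FPKM in Wtap-CKO hearts, against 5.36, 6.64 and 5.95 FPKM in Wtap-flox hearts. Every Wtap-CKO library was above every Wtap-flox library. Its log2 fold change was 0.87 (95% interval 0.59 to 1.15, limma adjusted p = 0.00278). The gene lies at chr7:28376784-28380253 in GRCm38 and overlaps the antisense gene Gm44710 over 1274 bases. Gm44710 averaged 2.89 ± 1.18 FPKM in Wtap-CKO and 1.95 ± 0.895 FPKM in Wtap-flox hearts (SD, n = 3 each) and was not called (log2 fold change 0.39, adjusted p = 0.409).

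The paralogs of Zfp36, which bind the same kind of element, were not higher. Zfp36l1 had 20.5, 25.9 and 16.1 FPKM in Wtap-CKO hearts, against 31.2, 30.5 and 27.2 FPKM in Wtap-flox hearts. The groups did not overlap, and Wtap-CKO 3 was lowest. The log2 fold change of -0.51 (95% interval -0.90 to -0.12) did not pass the adjusted threshold (adjusted p = 0.0751), but did under 6 alternatives, without Wtap-CKO 2 (0.0232) among them. For Zfp36l2 the levels were 20.6, 20.5 and 13.9 FPKM in Wtap-CKO hearts, against 19.2, 22.9 and 20.3 FPKM in Wtap-flox hearts. These groups overlapped (log2 fold change -0.19, adjusted p = 0.477).

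Within the family, Zfp36 made up 23.7%, 18.7% and 28.2% of the summed FPKM in Wtap-CKO hearts, against 9.59%, 11.1% and 11.2% in Wtap-flox hearts. The mean share was 23.5% ± 4.76 in Wtap-CKO and 10.6% ± 0.875 in Wtap-flox hearts (SD, n = 3 each), a difference of 12.9 percentage points. The shares did not overlap, and the exact two-sided permutation test gave p = 0.1, the smallest that 3 against 3 allows, and 0.2 after adjustment over 8 such shares. A share within a library does not move with the scaling between libraries. The summed level of the 3 genes was 41.7 to 57.1 FPKM in Wtap-CKO and 53.4 to 60.0 FPKM in Wtap-flox hearts, so the sums overlapped.

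**Figure D2:**
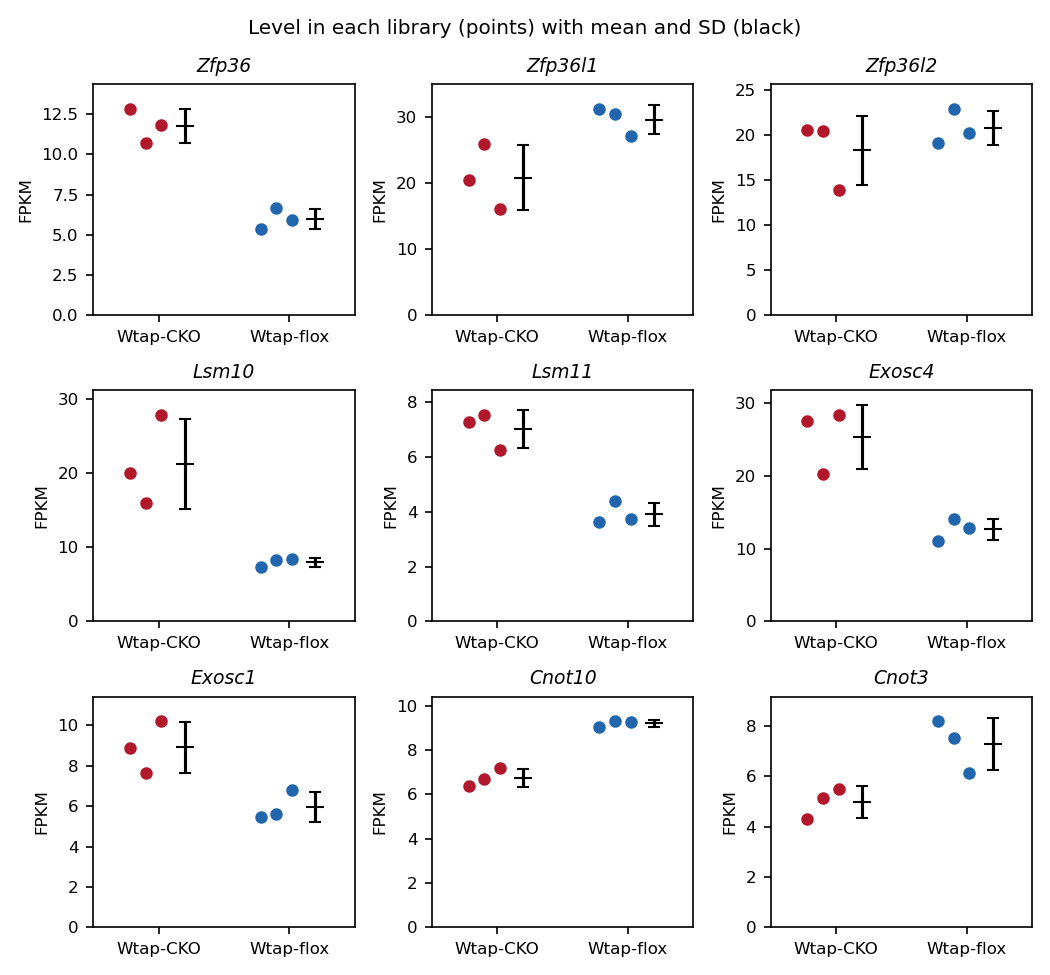
FPKM of Zfp36, Zfp36l1, Zfp36l2 and the 6 other members called, in each library (points, replicates 1 to 3 from left to right), with the mean and SD of the group in black. Axes start at 0. The groups do not overlap in any panel except that of Zfp36l2.

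Of 18 known targets of the Zfp36 family, mostly cytokine and immediate early genes, 9 reached 1 FPKM, and 4 of these were higher and 0 lower by limma (limma-voom on recovered reads 1 lower, unadjusted p below 0.05 1 lower). Those 4 are 44.4% of the 9, beside 9.91% of all tested genes called higher. Ccl2, a monocyte chemokine, had 5.28, 5.86 and 14.1 FPKM in Wtap-CKO hearts, against 0.756, 0.995 and 1.19 FPKM in Wtap-flox hearts (log2 fold change 2.13, adjusted p = 0.0085). Ccl2 averaged under 1 FPKM in Wtap-flox hearts and passed the filter through the Wtap-CKO hearts, so its call depends on that choice, and 3 of the other 8 were called. Ier3, an immediate early survival gene, had 62.9, 64.8 and 70.4 FPKM in Wtap-CKO hearts, against 23.5, 30 and 30.5 FPKM in Wtap-flox hearts (log2 fold change 1.22, adjusted p = 0.0014). Each of these pairs of groups stood apart, and Wtap-CKO 3 was highest for both genes. The transcription factors Fos (log2 fold change 1.49) and Myc (1.03) passed as well. Ccnd1 ran the other way and did not pass (log2 fold change -0.52, adjusted p = 0.074). Decay rates were not measured, and Fos and Ier3 also stand on the list of immediate early genes, of which 5 of 10 tested were higher (Fos, Junb, Egr1, Ier3 and Nr4a1) and 1 was lower (Jun). These were 50% and 10% of the 10, beside 9.91% and 6.69% of all tested genes. The summed level of that list was 197 to 242 FPKM in Wtap-CKO and 130 to 161 FPKM in Wtap-flox hearts. Its part in the higher Zfp36 was not tested.

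CCR4-NOT is the main cytoplasmic deadenylase. All 11 of its genes were expressed, 10 had a negative log2 fold change, and 2 were called lower and 0 higher (limma-voom on recovered reads 2 lower and 0 higher, unadjusted p below 0.05 5 lower and 0 higher). The median log2 fold change of the 11 was -0.23, and the groups did not overlap for 7 of them (63.6%, beside 37.1% of all tested genes). The 2 called lower are 18.2% of the 11, beside 6.69% of all tested genes, and 14.2% of those were lower at the unadjusted threshold. The fit is the same for all, and no test was made of the 11 as a set. Their summed level was 98.0 to 105 FPKM in Wtap-CKO and 116 to 124 FPKM in Wtap-flox hearts, without overlap. With TPM scaling Cnot9, a subunit that contacts GW182 proteins, was called lower beside Cnot10 and Cnot3.

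Cnot10 binds Cnot11 at one end of the scaffold. It had 6.36, 6.68 and 7.18 FPKM in Wtap-CKO hearts, against 9.02, 9.30 and 9.28 FPKM in Wtap-flox hearts. The Wtap-flox values were nearly equal and all above the Wtap-CKO values (log2 fold change -0.40, 95% interval -0.64 to -0.16, adjusted p = 0.0350). The adjusted p was above the threshold with any Wtap-flox library left out, with Wtap-CKO 1 or Wtap-CKO 2 left out and with no filter on low genes, between 0.0697 and 0.124.

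Cnot3, part of the NOT module with Cnot2 at the other end of the scaffold, had 4.30, 5.15 and 5.50 FPKM in Wtap-CKO hearts, against 8.19, 7.51 and 6.15 FPKM in Wtap-flox hearts. Again the groups did not overlap, although Wtap-CKO 3 and Wtap-flox 3 were close (log2 fold change -0.47, 95% interval -0.78 to -0.15, adjusted p = 0.0499). That p lies at the threshold, and it was 0.0746 to 0.162 with Wtap-CKO 1, Wtap-CKO 2, Wtap-flox 1 or Wtap-flox 2 left out. Cnot3 (chr7:3645268-3661109) overlaps Leng1 on the other strand over 1012 bases, and Leng1 was not called (log2 fold change 0.24). Cnot10 (chr9:114585878-114640184) overlaps no protein coding gene.

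The scaffold Cnot1 had 8.11, 10.7 and 7.24 FPKM in Wtap-CKO hearts, against 13.1, 11.2 and 10.4 FPKM in Wtap-flox hearts. Wtap-CKO 2 lay among the Wtap-flox values, and the log2 fold change of -0.39 did not pass (95% interval -0.74 to -0.03, adjusted p = 0.129). It was called without Wtap-CKO 2 (adjusted p = 0.0428) and with array weights (0.0377). The remaining structural subunits were not called, with log2 fold changes of -0.32 for Cnot9, -0.23 for Cnot11, -0.14 for Cnot4, an associated ubiquitin ligase, and -0.03 for Cnot2.

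The catalytic subunits come as 2 pairs of paralogs. Cnot6 had 16.6, 16.0 and 13.2 FPKM in Wtap-CKO hearts, against 16.7, 16.8 and 20.6 FPKM in Wtap-flox hearts (log2 fold change -0.22, adjusted p = 0.306). Its paralog Cnot6l had 5.85, 5.94 and 4.23 FPKM in Wtap-CKO hearts, against 6.72, 6.43 and 8.27 FPKM in Wtap-flox hearts (log2 fold change -0.37, adjusted p = 0.134). Both were lowest in Wtap-CKO 3 and highest in Wtap-flox 3, and neither passed. The share of Cnot6l in the pair was 25.8% ± 1.44 in Wtap-CKO and 28.4% ± 0.563 in Wtap-flox hearts, without overlap (exact two-sided permutation p = 0.1, adjusted 0.2). Cnot6 overlaps the processed pseudogene Gm12191 (mean 38.9 FPKM) on the same strand over 348 bases. How reads were divided between Cnot6 and Gm12191 is uncertain, and so are the Cnot6 level and this share.

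In the other pair, Cnot7 had 8.89, 8.14 and 8.29 FPKM in Wtap-CKO hearts, against 8.07, 8.88 and 10.9 FPKM in Wtap-flox hearts (log2 fold change -0.11, adjusted p = 0.591). Cnot8, the CCR4-NOT gene with the highest mean, had 21.1, 17.2 and 20.0 FPKM in Wtap-CKO hearts, against 19.9, 17.5 and 18.3 FPKM in Wtap-flox hearts (log2 fold change 0.06, adjusted p = 0.778). The groups overlapped for both genes. The sign of Cnot8 turned with quantile and TPM scaling. Its share of the pair was 69.6% ± 1.53 in Wtap-CKO and 66.7% ± 4.25 in Wtap-flox hearts (exact two-sided permutation p = 0.4).

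The other deadenylases gave 0 calls of 3 in either direction, by limma, by limma-voom and at an unadjusted p below 0.05. Pan2, the catalytic subunit of PAN2-PAN3, had 4.96, 5.20 and 6.38 FPKM in Wtap-CKO hearts, against 6.83, 6.75 and 6.20 FPKM in Wtap-flox hearts (log2 fold change -0.23, adjusted p = 0.247). Its partner Pan3 had 2.58, 2.84 and 2.77 FPKM in Wtap-CKO hearts, against 2.87, 2.40 and 2.78 FPKM in Wtap-flox hearts (log2 fold change 0.02, with 95% interval -0.24 to 0.28, adjusted p = 0.924). Both pairs of groups overlapped. Parn, a nuclear deadenylase that also trims small RNAs, had 3.72, 3.95 and 3.29 FPKM in Wtap-CKO hearts, against 4.31, 4.20 and 4.03 FPKM in Wtap-flox hearts. The Parn groups stood apart by a narrow gap, and the log2 fold change of -0.16 did not pass (adjusted p = 0.378). The summed level of the 3 genes was 11.3 to 12.4 FPKM in Wtap-CKO and 13 to 14 FPKM in Wtap-flox hearts, also without overlap.

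Cytoplasmic poly(A)-binding proteins coat the tail. Pabpc1 was among the most abundant members, with 68.2, 64.3 and 53.4 FPKM in Wtap-CKO hearts, against 52.3, 64.2 and 65.7 FPKM in Wtap-flox hearts (log2 fold change 0.03, 95% interval -0.32 to 0.38, adjusted p = 0.916). Pabpc4 had 62.5, 70.1 and 71.7 FPKM in Wtap-CKO hearts, against 71.6, 88.6 and 75.2 FPKM in Wtap-flox hearts (log2 fold change -0.20, adjusted p = 0.383). The groups overlapped for both, and 0 of the 2 were called by limma, by limma-voom or at an unadjusted p below 0.05. The other Pabpc genes were under 1 FPKM. Pabpc1l had 0.166 to 0.583 FPKM in Wtap-CKO and 0.104 to 0.274 FPKM in Wtap-flox hearts, Pabpc4l 0.577 to 0.810 FPKM in Wtap-CKO and 0.636 to 0.959 FPKM in Wtap-flox hearts, and Pabpc5 at most 2 reads per library. Pabpc2 and Pabpc6 were listed at 0 throughout. Pabpc genes and their retrocopies share long stretches of sequence, so how reads were divided among them is uncertain.

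Decapping factors and the exonucleases gave 0 calls of 8 by limma and by limma-voom in either direction. At an unadjusted p below 0.05, 1 was lower and 0 higher. Dcp2, the decapping enzyme, had 5.35, 5.12 and 3.76 FPKM in Wtap-CKO hearts, against 6.20, 6.38 and 6.30 FPKM in Wtap-flox hearts. All Wtap-CKO values were below all Wtap-flox values (log2 fold change -0.36, 95% interval -0.66 to -0.05, adjusted p = 0.106), and the gene was called with TPM scaling (adjusted p = 0.0478). Its activator Dcp1a had 2.98, 4.15 and 3.40 FPKM in Wtap-CKO hearts, against 4.38, 4.23 and 3.20 FPKM in Wtap-flox hearts, with overlap (log2 fold change -0.13, adjusted p = 0.59).

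The cytoplasmic exonuclease Xrn1 had 1.74, 2.31 and 1.74 FPKM in Wtap-CKO hearts, against 2.48, 2.14 and 2.26 FPKM in Wtap-flox hearts (log2 fold change -0.17, adjusted p = 0.392). Its nuclear relative Xrn2 had 13.6, 12.5 and 11.9 FPKM in Wtap-CKO hearts, against 14.6, 13.3 and 13.8 FPKM in Wtap-flox hearts (log2 fold change -0.13, adjusted p = 0.463). Both overlapped between groups. Dcp1b, a second DCP1 protein, Dcps, which clears the freed cap, and the scaffold Edc4 had log2 fold changes of -0.27, -0.20 and -0.15. Edc3, an enhancer of decapping, was the 1 member of this group with a positive value (0.11). Dcp1a and Dcp1b overlap the calcium channel genes Cacna1d and Cacna1c on the other strand. The summed level of the 8 genes was 49.8 to 51.3 FPKM in Wtap-CKO and 57.1 to 58.1 FPKM in Wtap-flox hearts, without overlap. Sums of this kind, here and for the deadenylases, move with the scaling between libraries and were not tested.

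**Figure D3:**
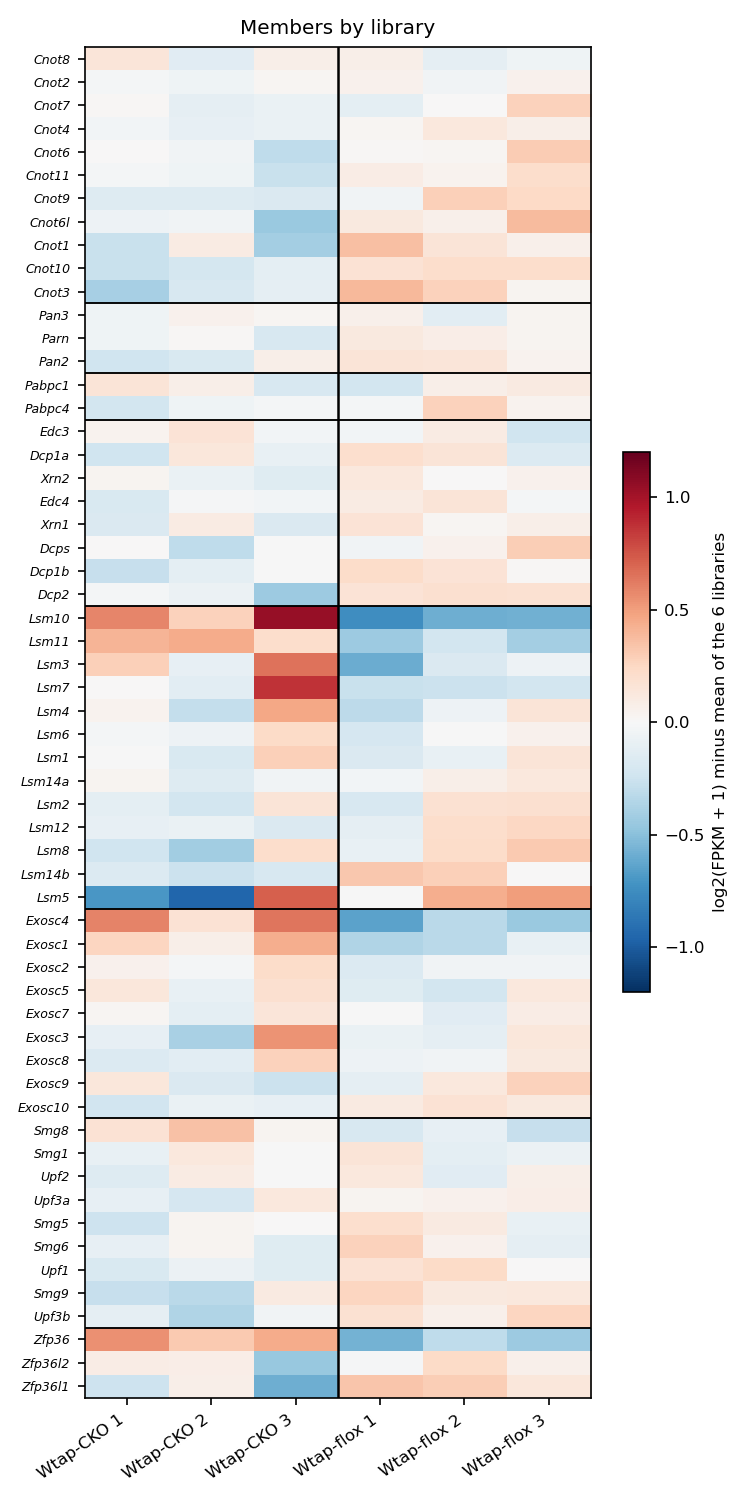
Level of the tested members in each library, 1 uncalled member left out, as log2(FPKM + 1) minus the mean of the 6 libraries, with Wtap-CKO left of Wtap-flox. Horizontal lines part the sub-groups, in the order of the plot of fold changes. Lsm10, Lsm11, Exosc4 and Zfp36 are red in every Wtap-CKO library, and Lsm3, Lsm4, Lsm7 and Exosc3 are highest in Wtap-CKO 3.

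The Lsm genes serve several particles, and the 2 that were called belong to a particle outside mRNA turnover. Those 2 are 15.4% of the 13 Lsm genes, all tested, beside 9.91% of all tested genes called higher. Lsm10 and Lsm11 are the proteins particular to the U7 particle, which cuts the 3′ end of replication-dependent histone pre-mRNAs. Lsm10 had 20.0, 15.9 and 27.8 FPKM in Wtap-CKO hearts, against 7.30, 8.27 and 8.38 FPKM in Wtap-flox hearts. Lsm11 had 7.28, 7.52 and 6.24 FPKM in Wtap-CKO hearts, against 3.61, 4.38 and 3.73 FPKM in Wtap-flox hearts. For both, the lowest Wtap-CKO value was above the highest Wtap-flox value. The log2 fold change was 1.27 for Lsm10 (95% interval 0.85 to 1.69, adjusted p = 0.00315), the largest of the 59 members, and 0.71 for Lsm11 (0.43 to 0.99, adjusted p = 0.00612).

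Lsm10 lies at chr4:126096623-126098584 and Lsm11 at chr11:45928269-45944935. Among genes averaging at least 1 FPKM, the nearest downstream of Lsm10 is Stk40. Stk40 was not called (log2 fold change 0.26, adjusted p = 0.189), nor was Thg1l, which lies 1907 bases upstream of Lsm11 (-0.05, adjusted p = 0.857).

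The 8 genes Lsm1 to Lsm8 code for a pair of rings that share all but one subunit: LSM1 marks the cytoplasmic ring, which promotes decapping, and LSM8 the nuclear ring, which holds U6 RNA. Of these genes 0 were called by limma or limma-voom, with 1 higher and 0 lower at an unadjusted p below 0.05 (Lsm3, log2 fold change 0.56, adjusted p = 0.111, called only without Wtap-CKO 2 or with array weights), and the median log2 fold change was 0.08. Lsm1 had 3.90, 3.35 and 5.01 FPKM in Wtap-CKO hearts, against 3.36, 3.64 and 4.49 FPKM in Wtap-flox hearts (log2 fold change 0.07, adjusted p = 0.794). Lsm8 had 3.66, 3.10 and 5.35 FPKM in Wtap-CKO hearts, against 4.15, 5.41 and 5.81 FPKM in Wtap-flox hearts (log2 fold change -0.30, adjusted p = 0.303). Each gene overlapped between groups. Their ratio did not: LSM1's gene made up 50.6% ± 1.99 of the FPKM of the pair in Wtap-CKO and 42.8% ± 2.33 in Wtap-flox hearts (SD, n = 3 each), 7.79 points apart (exact two-sided permutation p = 0.1, adjusted 0.2).

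Lsm4, a shared subunit and the most abundant Lsm gene, had 61.9, 49.0 and 83.3 FPKM in Wtap-CKO hearts, against 48.2, 57.6 and 67.1 FPKM in Wtap-flox hearts (log2 fold change 0.14, adjusted p = 0.679). Wtap-CKO 3 was the highest library, and without it the log2 fold change was -0.05. Lsm5, also shared, had 2.03, 1.55 and 7.09 FPKM in Wtap-CKO hearts, against 3.91, 5.64 and 5.99 FPKM in Wtap-flox hearts. It is the least expressed ring gene in some libraries, at 19 to 99 reads, and Wtap-CKO 1 and 2 lay below all Wtap-flox values while Wtap-CKO 3 lay above them (log2 fold change -0.62, 95% interval -1.78 to 0.54, adjusted p = 0.423). With Wtap-CKO 3 left out it was called lower. The shared subunits Lsm7 (0.49), Lsm6 (0.10) and Lsm2 (-0.12) did not pass.

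Among the Lsm proteins with extra domains, Lsm14b, a translational repressor of the RAP55 family, came closest to the threshold. It had 14.3, 13.3 and 14.0 FPKM in Wtap-CKO hearts, against 20.4, 19.8 and 16.2 FPKM in Wtap-flox hearts, without overlap (log2 fold change -0.41, adjusted p = 0.0547), and it was called without Wtap-flox 3, among other alternatives. Its paralog Lsm14a was not called (-0.11), nor was Lsm12 (-0.24). The share of Lsm14b in the pair was 49.0% ± 0.846 in Wtap-CKO and 54.5% ± 4.36 in Wtap-flox hearts, with overlap (exact two-sided permutation p = 0.2).

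The exosome is a barrel of subunits under a cap, to which nucleases attach. Of its 10 genes 9 were tested, and 2 were called higher and 0 lower (limma-voom 2 higher and 0 lower, unadjusted p below 0.05 2 higher and 1 lower). Those 2 are 22.2% of the 9, beside 9.91% of all tested genes called higher. Exosc4, the barrel subunit RRP41, had 27.5, 20.3 and 28.3 FPKM in Wtap-CKO hearts, against 11.1, 14.0 and 12.8 FPKM in Wtap-flox hearts. Exosc1, the cap subunit CSL4, had 8.86, 7.66 and 10.2 FPKM in Wtap-CKO hearts, against 5.45, 5.62 and 6.79 FPKM in Wtap-flox hearts. Both genes were separated between groups, Exosc1 by a smaller gap. The log2 fold change was 0.94 for Exosc4 (95% interval 0.59 to 1.30, adjusted p = 0.00515) and 0.51 for Exosc1 (0.20 to 0.82, adjusted p = 0.0365).

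The Exosc1 call was lost without Wtap-CKO 1, Wtap-CKO 3, Wtap-flox 1 or Wtap-flox 2 (adjusted p = 0.071 to 0.124) and with TPM scaling (0.0761). Exosc4 (chr15:76327397-76330677) overlaps Oplah on the other strand over 619 bases. Oplah moved the other way, at 6.07 ± 0.216 FPKM in Wtap-CKO and 9.66 ± 1.23 FPKM in Wtap-flox hearts (SD, n = 3 each, log2 fold change -0.58, adjusted p = 0.014). Exosc1 (chr19:41922980-41933314) starts 165 bases from the divergent gene Zdhhc16, which was not called (0.23, adjusted p = 0.205). The glycolytic gene Pgam1 on its other side was higher (0.96, adjusted p = 0.0395).

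The nuclease subunit Exosc10 had 18.3, 20.4 and 20.1 FPKM in Wtap-CKO hearts, against 23.3, 24.4 and 23.5 FPKM in Wtap-flox hearts. It was thus lower in each Wtap-CKO library, but did not pass (log2 fold change -0.27, 95% interval -0.52 to -0.01, adjusted p = 0.138), and it was called with TPM scaling (adjusted p = 0.032). Exosc3, a cap subunit, had 7.53, 5.97 and 12.2 FPKM in Wtap-CKO hearts, against 7.63, 7.46 and 8.99 FPKM in Wtap-flox hearts. Wtap-CKO 3 alone was above the Wtap-flox values (log2 fold change 0.03, adjusted p = 0.933), and without it the log2 fold change was -0.22. The cap subunit Exosc2 (0.17) and the barrel subunits Exosc5 (0.16), Exosc7 (0.04), Exosc8 (-0.01) and Exosc9 (-0.20) were not called. Exosc6 was listed at 0 in every library. It lies whole, over 1326 bases, inside Aars on the same strand, and how the authors assigned reads of overlapping genes is not given in the sources used here.

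Nonsense-mediated decay gave 0 calls of 10 in either direction by limma and by limma-voom, with 1 higher and 3 lower at an unadjusted p below 0.05. Upf1, the central helicase, had 19.7, 21.4 and 20.2 FPKM in Wtap-CKO hearts, against 25.5, 26.5 and 22.5 FPKM in Wtap-flox hearts. Every Wtap-CKO value was below the Wtap-flox values (log2 fold change -0.27, adjusted p = 0.158), and with TPM scaling the adjusted p was 0.0459. Smg1, the kinase of UPF1, had 3.79, 4.55 and 4.08 FPKM in Wtap-CKO hearts, against 4.66, 3.69 and 3.83 FPKM in Wtap-flox hearts (log2 fold change 0.03, adjusted p = 0.911). Smg6, the endonuclease of the pathway, had 4.58, 5.13 and 4.40 FPKM in Wtap-CKO hearts, against 6.24, 5.20 and 4.56 FPKM in Wtap-flox hearts (log2 fold change -0.14, adjusted p = 0.498). Smg1 and Smg6 overlapped between groups.

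The regulators of the SMG1 kinase ran in opposite directions: Smg8 had 7.58, 8.69 and 6.77 FPKM in Wtap-CKO hearts, against 5.65, 6.10 and 5.28 FPKM in Wtap-flox hearts. Its groups stood apart (log2 fold change 0.37, adjusted p = 0.0722). Its partner Smg9 had 3.83, 3.67 and 5.30 FPKM in Wtap-CKO hearts, against 6.01, 5.34 and 5.37 FPKM in Wtap-flox hearts, with Wtap-CKO 3 just under the lowest Wtap-flox value (log2 fold change -0.33, adjusted p = 0.146). Neither passed, but without Wtap-CKO 3 and with array weights both were called, Smg8 higher and Smg9 lower. With TPM scaling Smg9 was called lower as well. Upf3b, which bridges to the exon junction complex, had a log2 fold change of -0.34 and its paralog Upf3a one of -0.11. Upf3a made up 45.5% ± 1.76 of the pair in Wtap-CKO and 41.0% ± 1.81 in Wtap-flox hearts, without overlap (exact two-sided permutation p = 0.1, adjusted 0.2). Upf2 (-0.04) and Smg5 (-0.14) were not called.

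**Figure D4:**
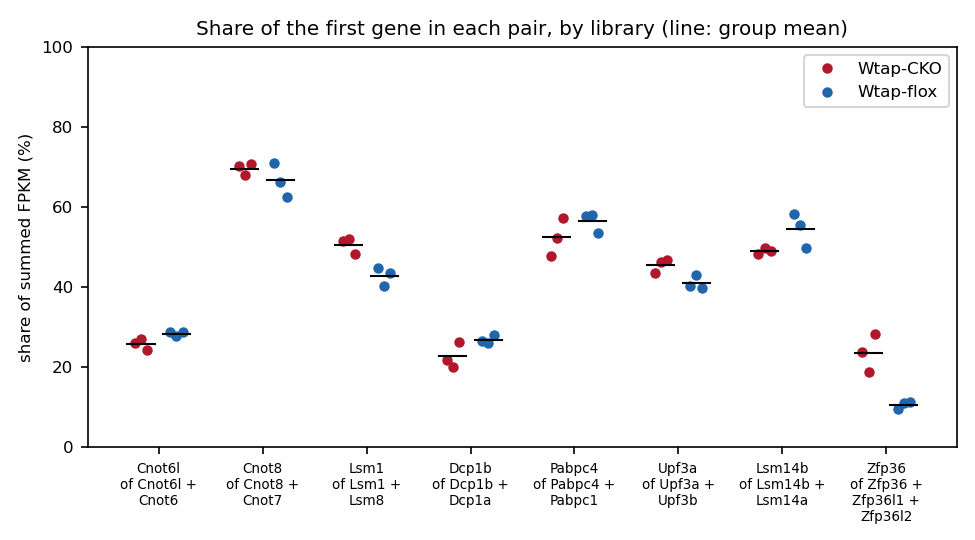
Share of the first gene of each pair or trio in the summed FPKM, in percent, with points for libraries (Wtap-CKO red, left; Wtap-flox blue, right) and a line for the group mean. The groups do not overlap for Cnot6l, Lsm1, Upf3a and Zfp36, whose exact p of 0.1 is the smallest possible, and they overlap for the other 4.

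Among 11 tested transcripts known as targets of nonsense-mediated decay, 4 were higher and 0 lower by limma (limma-voom 0 lower, unadjusted p below 0.05 0 lower). Those 4 are 36.4% of the 11, beside 9.91% of all tested genes called higher. The stress gene Gadd45b had 11.5, 9.49 and 19.1 FPKM in Wtap-CKO hearts, against 5.52, 4.40 and 4.69 FPKM in Wtap-flox hearts (log2 fold change 1.24, adjusted p = 0.00902). Cdkn1a, the cell cycle inhibitor p21, had 24.0, 28.7 and 36.0 FPKM in Wtap-CKO hearts, against 14.8, 16.7 and 14.6 FPKM in Wtap-flox hearts (log2 fold change 0.89, adjusted p = 0.0068). Both were separated between groups, with Wtap-CKO 3 highest. Snhg1 (0.62) and Tbl2 (0.37) passed too, while Gadd45a had -0.40 and did not. Many of these transcripts are also known as stress-response genes, and the activity of the decay pathway was not measured.

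Around the named machinery, 86 further factors on 6 lists were tested, of which 9 (10.5%) were higher and 2 (2.33%) lower, near or under the shares of all tested genes. The largest group of these was among adaptors and other deadenylases, with 5 higher and 1 lower of 22. These were 22.7% and 4.55%, beside 9.91% and 6.69% of all tested genes. Btg2, an antiproliferative adaptor that binds CNOT7 and CNOT8, had 28.0, 35.1 and 38.4 FPKM in Wtap-CKO hearts, against 11.9, 14.8 and 14.4 FPKM in Wtap-flox hearts (log2 fold change 1.24, adjusted p = 0.00156). Its relative Btg3 had 12.5, 13.4 and 10.3 FPKM in Wtap-CKO hearts, against 4.93, 7.35 and 7.27 FPKM in Wtap-flox hearts (log2 fold change 0.81, adjusted p = 0.0129). Both were above the Wtap-flox range in all 3 Wtap-CKO libraries.

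The cytoplasmic polyadenylation factors split. Cpeb1 was higher, at 3.21, 4.15 and 2.60 FPKM in Wtap-CKO hearts, against 1.55, 1.65 and 1.45 FPKM in Wtap-flox hearts (log2 fold change 0.75, adjusted p = 0.0113). Cpeb3 was lower, at 4.94, 4.96 and 2.84 FPKM in Wtap-CKO hearts, against 9.39, 7.87 and 9.16 FPKM in Wtap-flox hearts (log2 fold change -0.93, adjusted p = 0.0103). Neither overlapped between groups. Noct, named for the deadenylase-like protein nocturnin, was higher too (0.77, adjusted p = 0.0134).

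Of 13 decapping activators and scavengers, 2 were higher and 0 lower (limma-voom 1 lower, unadjusted p below 0.05 2 lower): Ajuba (log2 fold change 0.76, adjusted p = 0.00566) and Wtip (0.43, adjusted p = 0.0447), both LIM proteins found in processing bodies. The decapping activator Patl1 had -0.39 and did not pass (adjusted p = 0.0569). Of 20 exosome cofactors Pelo, which rescues stalled ribosomes, was the 1 called (0.76, adjusted p = 0.0125), and 0 were lower by limma or limma-voom, with 2 lower at an unadjusted p below 0.05. In the miRNA silencing complex 1 of 10 was higher, the GW182 protein Tnrc6c (0.72, adjusted p = 0.0128), and 1 was lower, Ago1 (-0.50, adjusted p = 0.0407). Calls higher were 15.4% of the decapping list, 5% of the exosome cofactors and 10% of the miRNA list, beside 9.91% of all tested genes. The 1 called lower is 10% of the miRNA list, beside 6.69% of all tested genes. The exon junction complex gave 0 calls of 9 (limma-voom 0, unadjusted p below 0.05 1 higher). The other AU-rich element binders and endonucleases gave 0 of 12 (limma-voom 0, unadjusted p below 0.05 1 higher and 1 lower), and Pcbp2 came closest (-0.38, adjusted p = 0.0686).

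Ythdf2, the m6A reader that recruits CCR4-NOT, had 18.0, 17.8 and 14.1 FPKM in Wtap-CKO hearts, against 8.78, 8.57 and 10.1 FPKM in Wtap-flox hearts. It was higher in all 3 Wtap-CKO libraries (log2 fold change 0.80, adjusted p = 0.00527). Its partner CCR4-NOT, as above, had no gene called higher.

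By the deposited gene lengths, the members called higher were mostly short genes with few exons. The 5 had a median gene length of 1945 bases and 3 exons, the 2 called lower 6874 bases and 19 exons, and the 52 not called 4475 bases and 10 exons. In the whole table, protein coding genes called higher had a median of 3276 bases and 6 exons, and those called lower 4652 bases and 11 exons. Of the 14 tested members under 3000 bases, 9 had a positive log2 fold change and the median was 0.10, the same median as for all 4508 tested genes of that length. Of the 45 longer members 34 had a negative value, with a median of -0.14, beside -0.03 for all 8060 longer genes. Across the 59 members, Spearman's rho of length with log2 fold change was -0.26, beside -0.22 across 11153 tested protein coding genes, as a description, since genes of the same libraries are not independent. GGACT, a form of the m6A consensus, occurred 1.06 times per kilobase of transcript in the median of the 5 members called higher. The median was 0.781 for the 2 called lower, 0.906 for members not called and 1.05 for all protein coding genes tested. For protein coding genes called higher it was 1.15, and for those called lower 0.995. Medians of 5 and 2 genes do not establish a contrast. Exons and GGACT were counted on the GENCODE canonical transcript, whose length can differ from the deposited gene length. Called higher, Lsm10 had 3890 bases (deposited 943), Exosc1 4433 (1622), Lsm11 6478, Zfp36 2822 and Exosc4 1802. Called lower, Cnot10 had 3013 and Cnot3 3532, so the contrast in length depends on the lengths used.

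**Figure D5:**
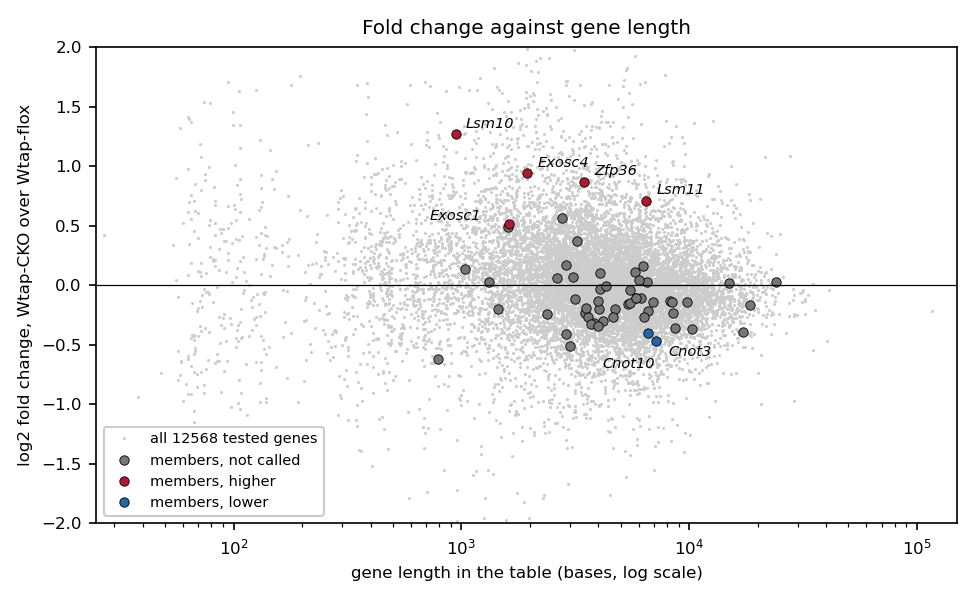
Log2 fold change, Wtap-CKO over Wtap-flox, against gene length on a log axis, for all 12568 tested genes (light grey) and the tested members (circled), 1 uncalled member left out. The axis is cut at -2 and 2, which hides 27 genes, 0 of them members. Of the members called higher, Lsm11 is the longest, at 6453 bases.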

How the data were processed

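Whole hearts of 3 Wtap-CKO and 3 Wtap-flox mice were compared, grouped by the genotype in the labels. Poly(A)-selected RNA was read for 150 bases from both ends, per the labels' protocols, which favours transcripts that still carry a tail. Per the submitters' processing notes, HISAT2 2.0.5 aligned the reads, featureCounts 1.5.0-p3 counted them and DESeq2 1.20.0 was used. The sources used here do not say if the libraries were stranded.

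The authors deposited FPKM per gene and library. FPKM times gene length gave whole reads for 100.0% of values (tolerance 0.01 of a read), and the scaling between libraries equals median-ratio size factors. The notes name GRCm39, but 94.72% of 20874 genes in the file start or end within 1000 bases of their GRCm38.p6 place, against 3.36% of 21728 for GRCm39, so coordinates are given as GRCm38.

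Genes averaging at least 1 FPKM were tested with limma 3.58.1 (R 4.3.3) on log2(FPKM + 1), with variance trend and robust moderation, two-sided, Benjamini-Hochberg over all 12568 genes, threshold 0.05. The pseudocount of 1 understates changes of low genes. Fold changes are Wtap-CKO over Wtap-flox and intervals are at 95%. Shares were compared by exact permutation. The procedure was also run on simulated reads with the same spread for every gene, as a check of the code only. The alternatives were pseudocounts 0.1 and 0.5, no filter and filters at 0.1 and 5 FPKM, 4 scalings, 3 settings of limma, a replicate block, each library left out, and limma-voom on recovered reads. Values per library are given for members that passed, for the most abundant member of each sub-group and for a list of core enzymes and family members, and from other lists for the leading genes. The values of 1 uncalled member, which is included in the counts, are not reported here. Members near the threshold were named after their values were seen. The members, lists and tests were chosen with earlier results of these data known. Python 3.11.15 was used with pandas 2.3.3, numpy 2.4.6 and scipy 1.17.1 for tables and matplotlib 3.10.9 for plots. Promoters are from the RefSeq table for GRCm38.p6.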

Additional observations from a re-analysis of the deposited data

How the results depend on the processing

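Zfp36, Lsm10, Exosc4 and Lsm11 were called higher under all 20 alternatives, while Exosc1 was under 12, Cnot10 under 13 and Cnot3 under 11. The number of members called higher stayed within 1.5 times of 5. The number called lower, 2, was 0 with no filter, 1 with a filter at 0.1 FPKM, 1 without the variance trend, 1 without robust moderation, 5 with quantile normalization, 10 with TPM scaling, 10 with a fixed total without mitochondrially encoded genes, 13 with array weights, 4 by limma-voom and 0 to 4 with a library left out. Of the other decay factors on 6 lists, 9 were higher and 2 lower. Those higher were 5 with no filter and 16 with array weights. Those lower were 1 with no filter and with filters at 0.1 and 5 FPKM, 6 with quantile normalization, 11 with TPM scaling and without mitochondrially encoded genes, 9 with array weights, 4 by limma-voom and 1 to 2 with a library left out. The whole table moved with some of these settings: genes called lower were 841 of 12568 (6.69%) with the deposited scaling, 1601 (12.7%) with TPM scaling, 1597 (12.7%) with a fixed total without mitochondrially encoded genes and 1676 (13.3%) with array weights, beside 3.39%, 16.9%, 16.9% and 22.0% of the members. The causes of these shifts were not tested.

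Replicates with the same number did not deviate together (correlations -0.216, -0.075 and -0.076), and the main fit treated the samples as unpaired. With so few libraries per group, these correlations cannot exclude a pairing. With the replicate block 5 members were higher and 0 lower, and 1 of the other factors was lower.

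Some uncalled genes turned sign, with log2 fold changes in this order for quantile normalization, TPM scaling and a fixed total without mitochondrially encoded genes: Cnot8 -0.05, -0.10 and -0.11; Exosc3 -0.01, -0.12 and -0.13; Lsm4 -0.04, -0.02 and -0.03; Pabpc1 -0.14, -0.14 and -0.15. For TPM scaling and the fixed total they were Lsm1 -0.06 and -0.07, Pan3 -0.10 and -0.11, and Smg1 -0.11 and -0.12. With array weights they were Exosc3 -0.03 and Wtap 0.01. Leaving out a library gave -0.22 to 0.24 for Exosc3, -0.06 to 0.18 for Lsm1, -0.05 to 0.32 for Lsm4, -0.07 to 0.13 for Pabpc1, -0.04 to 0.06 for Pan3, -0.03 to 0.11 for Smg1 and -0.13 to 0.09 for Wtap. No share of a pair changed its direction with a library left out. Depth limits Lsm5 (19 to 99 reads) and Pabpc5 (at most 2 reads).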
